A study of Homo sapiens with 45 samples.

Results

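Untreated Jurkat cells were sampled at 2 culture times in this study of T-cell acute lymphoblastic leukaemia, and the 2 untreated groups are compared here: 3 libraries from cells kept in 0.01% DMSO for 8 days (8 d) and 3 from cells kept in the same vehicle for 6 hours (6 h). They were chosen by their labels alone and make up 6 of the 45 libraries of the series and 6 of the 27 Jurkat libraries. Jurkat is 1 established human T-cell leukaemia line, so the 3 libraries of a group are samples of a single line. The labels name them as biological replicates, and nothing in them says whether they came from separate cultures. The p-values rest on the spread between samples within groups, pooled in the main fit over all 27 Jurkat libraries. Besides the groups described below, these include cells with guides against ARID1A, ARID1A plus ARID1B, SMARCA4, or SMARCA4 plus SMARCA2, labelled 10 days. The median SD over genes was 0.0627 to 0.074 in those guide groups and 0.117 in DMSO 8 d. The pooled spread therefore tends to lie under that of DMSO 8 d. The DMSO cells served as controls for BRM014, an inhibitor of the ATPase activity of SMARCA4 and SMARCA2, the motor subunits of the nucleosome-moving cBAF complex. Cells given 1 uM BRM014 for 6 h or 8 d (3 libraries each) share no library with the DMSO groups and are used here as a second pair of the same times. A further reference is gAAVS1, 3 libraries of Cas9-expressing Jurkat cells that carried a control guide against the AAVS1 site, had been selected with puromycin and were collected 10 days after transduction. The study's design text describes the 6 h treatment alone, and no label says whether the 8 d and 6 h cells were grown, extracted and sequenced side by side. Culture time, vehicle exposure and any difference between experiments therefore cannot be told apart.

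A culture of leukaemia cells changes as it grows: amino acids, glucose and lipids of the medium are used up and renewed at each passage, and cells adjust transcription through a few well-known programmes. ATF4 is the transcription factor that raises amino acid transporters and synthetic enzymes when amino acids are short or the ribosome initiation factor eIF2 is phosphorylated. SREBP factors raise enzymes of cholesterol and fatty acid synthesis when membrane sterol is low, HSF1 raises cytosolic chaperones when proteins misfold, and FOXO factors raise genes of slow growth when growth factor signalling is weak.

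Expression is given as TPM (transcripts per 1e+06, a level relative to all other mRNAs of the library and per gene length). Differences are on the log2(TPM + 1) scale with the standard error from limma, as 8 d minus 6 h. A gene was called at a Benjamini-Hochberg adjusted p under 0.05. The 6 libraries held 33.43 to 37.16 M reads on genes. T cell identity was as labelled, with 8 of 9 T cell markers at 1 TPM or more in every library, and the 9 summed to 1808 to 1906 TPM at 6 h and 1458 to 1545 TPM at 8 d. Markers of other cells were low but not absent: their sums at 6 h and 8 d were 22.7 to 29.4 and 25.1 to 29.4 TPM for 10 B cell genes, 11.4 to 14.5 and 9.29 to 11.5 TPM for 14 myeloid genes, 16.3 to 18.6 and 18.4 to 22.8 TPM for 14 erythroid and megakaryocyte genes, and 4.48 to 7.57 and 5.31 to 7.62 TPM for 12 epithelial and fibroblast genes. In each of these lists 1 to 3 members reached 1 TPM in all 3 libraries of a group, and MS4A1, S100A8, HBB and CDH1 were at 0 in all 6.

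Library 1 of DMSO 8 d stood apart from its mates. Its median absolute log2 difference from the other 8 d libraries was 0.149 and 0.161, against 0.107 between libraries 2 and 3, and the group had the largest median SD over genes of all 9 Jurkat groups, 0.117 against 0.0627 to 0.0832 in the others. Counts of list members are therefore also given without that library, and from a fit of the 6 DMSO libraries alone, which takes its spread only from them and not from the 27 Jurkat libraries.

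Of 17936 genes tested, 2985 (16.6%) were higher and 3353 (18.7%) lower at 8 d, together 35.3%. Most differences were small: the median absolute log2 difference was 0.15, the 90th percentile 0.43 and the 99th 0.91, and at 2-fold or more 55 genes (0.307%) were higher and 47 (0.262%) lower. Without library 1 of 8 d the counts were 1916 (10.7%) higher and 2989 (16.7%) lower, and at 2-fold 27 and 55. In the fit of the 6 libraries alone 859 (4.79%) were higher and 1197 (6.67%) lower, and at 2-fold 40 and 40. For 6805 genes (37.9%) the 2 groups of 3 did not overlap, and 5522 of these (30.8% of those tested) were also called. The plot of difference against level shows the called genes at every level.

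**Figure D1:**
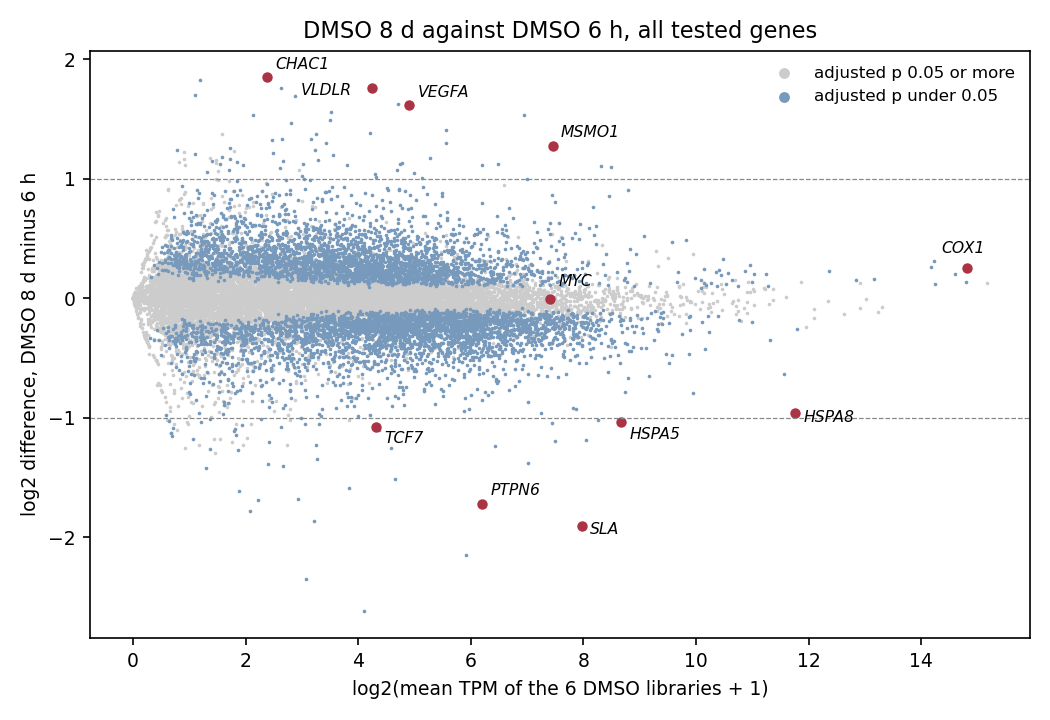
Log2 difference between DMSO 8 d and DMSO 6 h (vertical axis) against log2 of the mean TPM plus 1 over the 6 libraries (horizontal axis), 1 point per tested gene, with called genes in blue, named genes in red and dashed lines at 2-fold. Of 17936 points, 55 called genes lie on or above the upper line and 47 on or below the lower one, while MYC sits at 0.

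The 2 untreated groups lay farther apart than the libraries within DMSO 6 h. Pairs of a DMSO 6 h and a DMSO 8 d library differed by a median absolute log2 difference of 0.151 to 0.228 (median 0.169), pairs within DMSO 6 h by 0.067 to 0.108 and pairs within DMSO 8 d by 0.107 to 0.161, which overlaps the range between groups. Library 1 of 8 d lay at 0.206 to 0.228 from DMSO 6 h, libraries 2 and 3 at 0.151 to 0.170. DMSO 6 h and BRM014 6 h libraries differed by 0.197 to 0.226, and DMSO 8 d and BRM014 8 d libraries by 0.261 to 0.292. The gAAVS1 libraries lay about as far from DMSO 6 h (median 0.161) as from DMSO 8 d (median 0.152). On the second principal component, which held 23.1% of the variance, DMSO 8 d (-20.6 to -10.1) and gAAVS1 (-18.6 to -12.8) shared a range that the DMSO 6 h libraries (-0.57 to 4.86) did not reach. The BRM014 8 d libraries (-12.3 to -11.1) also lay within the DMSO 8 d range there, and the BRM014 6 h libraries at 34.5 to 39.1.

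**Figure D2:**
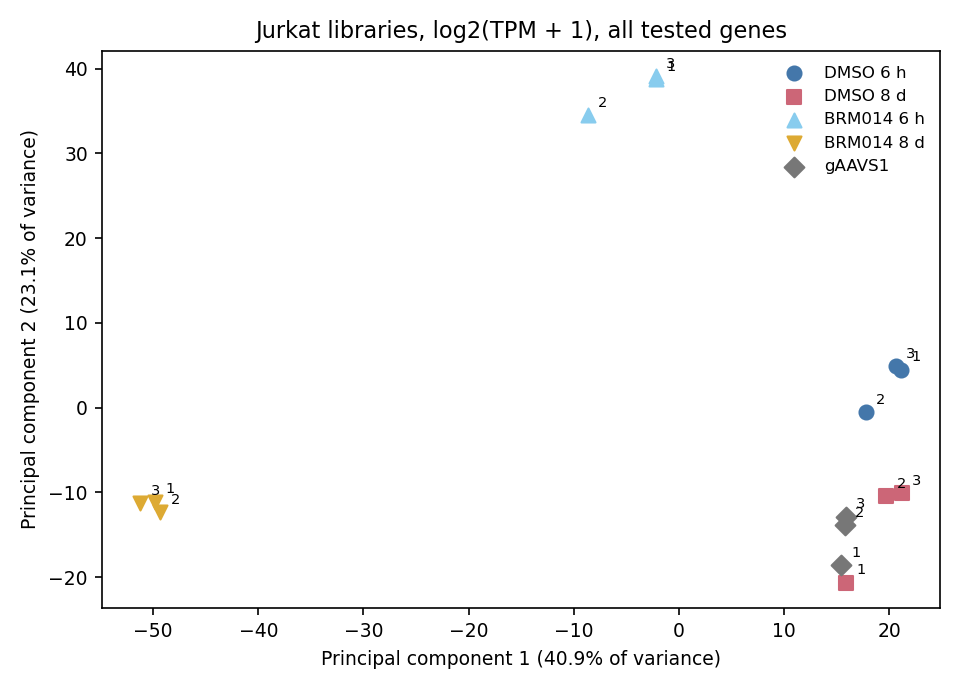
Principal components 1 and 2 of log2(TPM + 1) over all tested genes in 15 Jurkat libraries, 1 point per library, numbered by replicate and coloured by group. DMSO 8 d libraries lie at -20.6 to -10.1 on component 2, below all DMSO 6 h libraries, and library 1 lies farthest.

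The ATF4 and amino acid stress genes were mostly higher at 8 d. Of 24 tested members 21 were higher at 8 d, none was lower and 3 (DDIT3, SLC7A5 and SLC3A2) were not called, with a list median of 0.73 against -0.0045 over all tested genes. Without library 1 it was 17 of 24 with a median of 0.46, and in the fit of the 6 libraries alone 11 of 24. CHAC1, an enzyme that breaks down glutathione and a known ATF4 target (chromosome 15, 40953471 to 40956512), was at 1.41, 0.649 and 1.383 TPM at 6 h and at 11.6, 6.58 and 3.63 TPM at 8 d, a difference of 1.85 ± 0.34 (adjusted p = 0.000299). Library 1 was the highest at 8 d. Genes named as 1 of the 15 largest increases or decreases, CHAC1 among them, do not overlap between the groups because the rule for naming required it. SLC7A11, the cystine transporter (chromosome 4, 138164097 to 138242349), stood at 5.67, 3.35 and 5.46 TPM at 6 h and at 22.4, 13.5 and 11.4 TPM at 8 d (1.49 ± 0.26, adjusted p = 0.000205), with the 8 d libraries in the same order. VLDLR, a lipoprotein receptor (chromosome 9, 2621787 to 2660056), rose from 7.22, 6.30 and 8.18 TPM to 44.3, 23.7 and 18.0 TPM (1.76 ± 0.26, adjusted p = 4.85e-05). In the fit of the 6 libraries alone the adjusted p was 0.0295 for CHAC1, 0.0245 for SLC7A11 and 0.0225 for VLDLR.

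Metabolic enzymes of the ATF4 list were among those that rose. PSAT1, which makes phosphoserine, went from 186 to 202 TPM at 6 h to 586, 410 and 317 TPM at 8 d (1.11 ± 0.18, adjusted p = 9.53e-05). The mitochondrial folate enzyme MTHFD2 rose by 0.87 (adjusted p = 0.000192), the cystathionine lyase CTH by 0.99 (adjusted p = 1.24e-06) and the mitochondrial enzyme PCK2 by 1.12 (adjusted p = 0.000688, and 0.0699 in the fit of the 6 libraries). ATF4 mRNA itself (named after its values were seen) rose from 164 to 193 TPM to 291, 258 and 229 TPM (0.51 ± 0.08, adjusted p = 5.91e-05). ATF3, a stress-induced factor of the same family, went from 4.70, 4.63 and 5.60 TPM to 22.0, 12.5 and 9.28 TPM (1.30 ± 0.23, adjusted p = 0.000248, and 0.0359 in the fit of the 6 libraries). The asparagine synthetase ASNS, also named after its values were seen, overlapped between the groups, with 14.6, 33.3 and 16.9 TPM at 6 h and 77.2, 36.2 and 25.8 TPM at 8 d, and its call (1.01 ± 0.32, adjusted p = 0.0205) was lost without library 1 (adjusted p = 0.17). DDIT3, a pro-apoptotic member of the pathway, differed by 0.03 ± 0.11 (adjusted p = 0.855). By library the list median, on the log2 scale relative to the DMSO 6 h mean, was 1.16, 0.66 and 0.35 at 8 d and -0.08 to 0.07 at 6 h. The rise was thus largest in library 1 of 8 d and smallest in library 3.

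**Figure D3:**
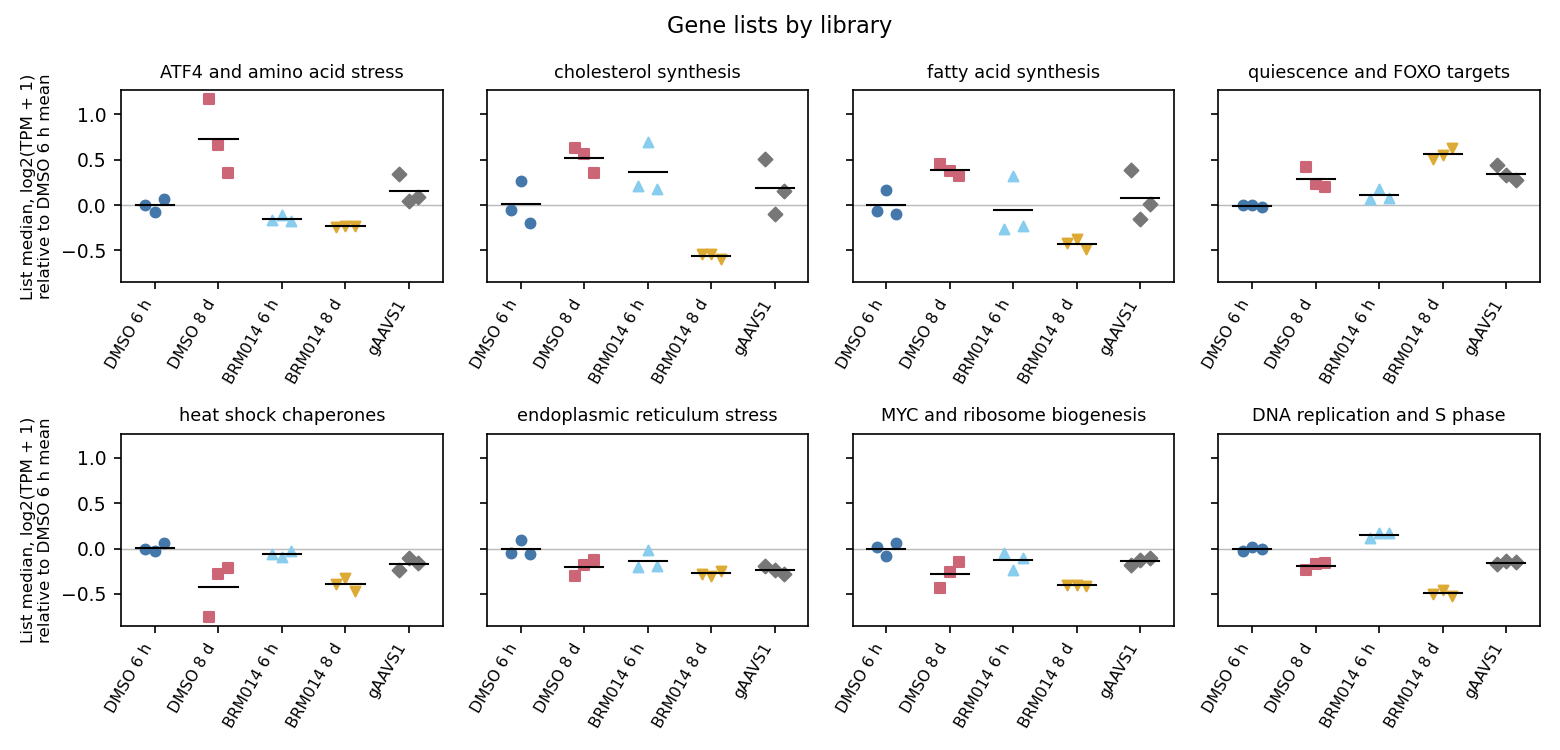
Median log2(TPM + 1) of 8 gene lists in each of 15 libraries relative to the mean of DMSO 6 h (vertical axis), by group (horizontal axis), 1 point per library and a line at the group mean. In DMSO 8 d the ATF4 list lies at 0.35 to 1.16 and the heat shock list at -0.76 to -0.22, in each case with library 1 farthest from 0.

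Sterol and fatty acid genes were higher at 8 d. Of 24 tested members of the cholesterol list 14 were higher, 1 was lower and 9 were not called, with a median of 0.52, and 11 were higher without library 1 and in the fit of the 6 libraries. MSMO1, a demethylase of the late cholesterol pathway (chromosome 4, 165327669 to 165343164), was at 100, 128 and 79.6 TPM at 6 h and at 249, 249 and 240 TPM at 8 d (1.28 ± 0.18, adjusted p = 3.91e-05). Its 8 d libraries lay close together. INSIG1, the sterol-sensing brake on SREBP (chromosome 7, 155297878 to 155310235), stood at 216, 279 and 194 TPM and then at 537, 492 and 440 TPM (1.10 ± 0.19, adjusted p = 0.000169). HMGCS1, which acts early in the pathway, differed by 0.90 ± 0.26 (adjusted p = 0.00944, and 0.0659 in the fit of the 6 libraries). The exception was PMVK, phosphomevalonate kinase, which fell from 55.7 to 58.3 TPM to 42.7 to 44.6 TPM (-0.37, adjusted p = 1.38e-05). Library 2 of DMSO 6 h had the highest list median of its group (0.26 against -0.05 and -0.19), and library 2 of BRM014 6 h of its own (0.69 against 0.21 and 0.17).

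Of 12 fatty acid synthesis genes 8 were higher and none lower (median 0.38), but without library 1 the count was 3 at a median of 0.34, and in the fit of the 6 libraries it was 4. SREBF1, the SREBP factor of fatty acid synthesis, rose from 52.4, 54.0 and 53.01 TPM to 82.8, 80.6 and 69.1 TPM (0.53 ± 0.13, adjusted p = 0.00342). The stearoyl desaturase SCD was at 543 to 791 TPM and then at 848 to 917 TPM (0.47, adjusted p = 0.0434), a call lost without library 1 at a similar difference (0.44, adjusted p = 0.12). Of the sterol element letters TCACNCCAC, searched on both strands, a match lay in 1 of 23 promoters of the cholesterol list (4.35%) and in 1.13% of 35116 RefSeq promoters. That 1 match was in SREBF2, and the same letters matched in 2 of 33 promoters of the heat shock list (6.06%). The ATF4 site letters TGATGNAAT matched in 0 of 32 promoters of the ATF4 list and in 0.991% of all.

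Heat shock chaperones were mostly lower at 8 d. The list holds cytosolic chaperones and co-chaperones, the mitochondrial chaperones HSPD1, HSPE1 and HSPA9, and the factors HSF1 and HSF2. Of 23 tested members 16 were lower, 1 was higher (the factor HSF2, 0.23) and 6 were not called, with a list median of -0.44. Without library 1 the count was 12 lower and the median -0.23, and in the fit of the 6 libraries 4 were lower, at an unchanged median of -0.44. Together the listed chaperones took 1.63 to 1.74% of all TPM at 6 h and 0.796, 1.27 and 1.44% at 8 d (exact permutation p = 0.1, two-sided, the lowest that 3 against 3 libraries allow). HSPA8, the constitutive HSP70 of the cytosol (named after its values were seen), was at 4086, 4880 and 4470 TPM and then at 1377, 2754 and 3160 TPM. Its difference was -0.96 ± 0.19 (adjusted p = 0.000564), which became -0.60 without library 1 and had an adjusted p = 0.0856 in the fit of the 6 libraries. HSP90AA1, the inducible HSP90, named likewise, fell from 3494, 3554 and 3792 TPM to 1563, 2631 and 3060 TPM (-0.63 ± 0.15, adjusted p = 0.00254), which became -0.35 without library 1, with an adjusted p = 0.128 in the fit of the 6 libraries. In both genes library 1 was far below the other two at 8 d, and even those lay under every 6 h library.

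DNAJB1, an HSP40 co-chaperone (chromosome 19, 14514769 to 14560391), went from 208, 259 and 281 TPM to 74.8, 129 and 128 TPM (-1.19 ± 0.15, adjusted p = 1.04e-05). The inducible HSP70 genes HSPA1A and HSPA1B fell by 1.27 and 1.39 from means of 4.14 and 6.65 TPM, and as near-identical copies they can share reads.

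Promoters are shown for 3 abundant chaperones because the heat shock element that HSF1 binds recurs in this list: the blocks GAA, TTC and GAA, each parted from the next by 2 bases of any kind and searched on both strands, matched in 7 of 33 promoters of the heat shock list (21.2%) and in 172 of 35116 RefSeq promoters (0.49%). As the list holds heat shock genes by its making, that share is not independent of how its members were picked. DNAJB1, HSPA1A and HSPA1B, which fell by more than the 3 shown, were not among the genes with a match. Each window runs from 250 bases before to 50 after the gene start, and capitals mark the matches.
HSPA8 (GRCh38.p14, chr11:123062087-123062386, minus strand): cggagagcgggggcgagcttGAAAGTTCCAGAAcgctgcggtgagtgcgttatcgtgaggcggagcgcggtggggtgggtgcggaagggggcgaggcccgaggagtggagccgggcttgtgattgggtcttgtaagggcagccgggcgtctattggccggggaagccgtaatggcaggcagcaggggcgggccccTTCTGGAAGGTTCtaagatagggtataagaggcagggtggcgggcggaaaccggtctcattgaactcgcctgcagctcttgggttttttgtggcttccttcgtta
HSP90AA1 (GRCh38.p14, chr14:102086995-102087294, minus strand): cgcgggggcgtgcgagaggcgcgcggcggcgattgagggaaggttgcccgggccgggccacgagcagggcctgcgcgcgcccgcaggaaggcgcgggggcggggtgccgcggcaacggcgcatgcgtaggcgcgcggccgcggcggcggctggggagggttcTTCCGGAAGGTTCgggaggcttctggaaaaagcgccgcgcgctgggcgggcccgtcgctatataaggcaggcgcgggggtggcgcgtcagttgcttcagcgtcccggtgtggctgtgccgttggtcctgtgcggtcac
HSP90AB1 (GRCh38.p14, chr6:44247693-44247992, plus strand): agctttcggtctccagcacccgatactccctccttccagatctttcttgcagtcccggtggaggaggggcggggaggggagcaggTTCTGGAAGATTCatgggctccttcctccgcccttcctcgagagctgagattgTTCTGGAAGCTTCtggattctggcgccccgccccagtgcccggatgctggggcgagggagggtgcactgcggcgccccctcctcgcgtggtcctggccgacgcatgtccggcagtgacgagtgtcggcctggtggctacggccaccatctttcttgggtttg
HSPA8 and HSP90AB1 hold 2 matches each and HSP90AA1 holds 1. A match describes the letters and says nothing of binding in these cells. HSP90AB1, with the 2 matches, was at 2824, 2622 and 3004 TPM at 6 h and at 1665, 2418 and 2667 TPM at 8 d, which overlap, and its call (-0.35, adjusted p = 0.0243) was lost without library 1 (-0.15, adjusted p = 0.21).

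Genes of the endoplasmic reticulum stress response, a list of chaperones, sensors and degradation factors, were lower in 14 of 22 and higher in 3, with a median of -0.19 (11 lower without library 1, 6 in the fit of the 6 libraries). HSPA5, the HSP70 of that compartment (chromosome 9), stood at 480, 661 and 491 TPM at 6 h and at 204, 276 and 317 TPM at 8 d (-1.04 ± 0.15, adjusted p = 3.68e-05). Its partners SDF2L1 and DNAJB11 fell by 0.70 and 0.48. The 3 higher members were the stress sensor ERN1 (0.65), the degradation factor EDEM1 (0.79) and the coat protein SEC24D (0.17, lost without library 1 at an adjusted p = 0.13). EDEM1 was at 151 TPM in library 1 of 8 d against 76.5 and 57.2 TPM in the others, and its difference without library 1 was 0.40.

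Genes of a list of MYC-linked and ribosome biogenesis genes, which also holds ODC1 and CAD, were mostly lower. Of 41 tested genes 33 were lower, none was higher and 8 were not called, with a median of -0.28 (22 lower without library 1, 11 in the fit of the 6 libraries). RRP12, a factor of ribosome export, was at 73.0, 62.4 and 76.8 TPM and then at 37.2, 45.4 and 50.9 TPM (-0.66 ± 0.10, adjusted p = 5.95e-05). RRS1, needed for the large subunit, fell from 82.8 to 87.0 TPM to 47.4 to 64.2 TPM (-0.59, adjusted p = 2.7e-05), and the nucleolar protein NOL6 from 42.2 to 48.2 TPM to 27.0 to 35.9 TPM (-0.51, adjusted p = 9.02e-05). MYC, the factor best known for driving these genes, did not differ beyond its spread, at 164, 161 and 180 TPM and then at 166, 166 and 171 TPM (-0.0035, adjusted p = 0.98). Cytosolic ribosomal protein mRNAs went the other way by little: 13 of 46 were higher and 1 lower, with a median of 0.06 (7 and 0 without library 1), and in the fit of the 6 libraries none was called. The E-box CACGTG, the letters bound by MYC and related factors, matched in 18 of 44 promoters of this list (40.9%) and in 7.26% of all promoters. As the list holds MYC-linked genes by its making, that share is not independent of how its members were picked. NOL6 and PES1, the latter named after its values were seen (-0.48, adjusted p = 5.2e-05), are shown with the E-box in capitals, in windows of the same extent.
NOL6 (GRCh38.p14, chr9:33473875-33474174, minus strand): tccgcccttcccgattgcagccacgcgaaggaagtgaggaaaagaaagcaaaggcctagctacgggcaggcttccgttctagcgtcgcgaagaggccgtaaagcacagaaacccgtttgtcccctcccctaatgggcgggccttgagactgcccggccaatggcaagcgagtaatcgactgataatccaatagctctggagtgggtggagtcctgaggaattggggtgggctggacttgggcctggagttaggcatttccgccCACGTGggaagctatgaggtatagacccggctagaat
PES1 (GRCh38.p14, chr22:30591861-30592160, minus strand): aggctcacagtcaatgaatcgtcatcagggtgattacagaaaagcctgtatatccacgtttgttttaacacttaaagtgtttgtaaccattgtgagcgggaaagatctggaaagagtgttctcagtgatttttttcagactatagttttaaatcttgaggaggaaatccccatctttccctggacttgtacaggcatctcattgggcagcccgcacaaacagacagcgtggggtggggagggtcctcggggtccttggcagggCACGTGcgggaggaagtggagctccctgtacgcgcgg
In both the match starts 13 bases after the gene start. As for the chaperones, the letters alone say nothing of binding.

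DNA replication genes fell by a small and even amount. Of 42 tested genes 28 were lower and 1 (RFC4, 0.18) was higher, with a median of -0.18 (25 lower without library 1, 13 in the fit of the 6 libraries). By library the median was -0.23, -0.17 and -0.16 at 8 d and -0.03 to 0.02 at 6 h, so library 1 did not stand apart here as it did for the stress lists. RRM2, the small subunit of ribonucleotide reductase, went from 271, 312 and 279 TPM to 166, 203 and 223 TPM (-0.55 ± 0.08, adjusted p = 2.43e-05), and the S phase cyclin gene CCNE1 fell by 0.57. Of 40 mitosis genes 13 were lower and 4 higher (median -0.07), 13 and 2 without library 1 and 5 and 1 in the fit of the 6 libraries. The D-type cyclin CCND3 (chromosome 6, 41934933 to 42050035) fell from 344, 474 and 398 TPM to 277, 198 and 141 TPM (-1.02 ± 0.15, adjusted p = 5.05e-05), here with library 1 nearest to 6 h. CDKN1B, the inhibitor p27, rose from 35.1 to 36.5 TPM to 68.2, 55.7 and 48.4 TPM (0.66 ± 0.09, adjusted p = 2.77e-05). In bulk RNA, fewer cells in a phase and less mRNA per cell cannot be told apart.

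FOXO and quiescence genes were mostly higher, 18 of 29 with 4 lower and a median of 0.30 (17 higher without library 1, 9 in the fit of the 6 libraries). TSC22D3, the glucocorticoid and FOXO target GILZ, was at 0.924, 1.5 and 0.762 TPM and then at 10.3, 4.10 and 2.56 TPM (1.53 ± 0.32, adjusted p = 0.00102, and 0.0602 in the fit of the 6 libraries). CCNG2, an unconventional cyclin linked to cell cycle exit, rose from 3.89 to 4.45 TPM to 17.4, 11.8 and 9.24 TPM (1.37 ± 0.20, adjusted p = 4.39e-05). KLHL24 rose by 1.22, KLF3 by 0.88, SESN3 by 0.86 and PIK3IP1, a brake on PI3K, by 0.80. The members that fell included 2 of the best known of this programme in T cells: IL7R, the interleukin 7 receptor (chromosome 5, 35856891 to 35879603), went from 14.9, 12.2 and 11.4 TPM to 4.72, 4.84 and 3.75 TPM (-1.34 ± 0.10, adjusted p = 4.64e-08), and KLF2 fell by 0.42. Among 24 listed p53 targets 12 were higher and 3 lower (median 0.23), 10 and 3 without library 1 and 6 and 3 in the fit of the 6 libraries, with CCNG1 (0.86) and SESN2 (1.25) highest and AEN (-0.55) lowest. SESN2 is also an ATF4 target, and the p53 target CDKN1A differed by 0.20 (adjusted p = 0.378).

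T cell signalling genes moved in both directions. Of 29 genes of receptor signalling 7 were higher and 9 lower (median -0.07), 6 and 10 without library 1 and 3 and 5 in the fit of the 6 libraries, with RASGRP1 (-0.79) and ZAP70 (-0.47) lower. Of 24 JAK, STAT and SOCS genes 6 were higher and 5 lower (5 and 4 without library 1, 3 and 3 in the fit of the 6). Over all tested genes 16.6% were higher and 18.7% lower. The single genes described next were taken from the 15 largest decreases. SLA (chromosome 8, 133036728 to 133102602), which lowers T cell receptor levels, was at 343, 490 and 358 TPM at 6 h and at 95.1, 104 and 113 TPM at 8 d (-1.91 ± 0.18, adjusted p = 6.04e-07). PTPN6, the phosphatase SHP-1 (chromosome 12, 6946577 to 6961316), stood at 104, 138 and 95.7 TPM and then at 30.6, 34.2 and 34.5 TPM (-1.72 ± 0.14, adjusted p = 1.66e-07). SOCS1, an inhibitor of JAK kinases (chromosome 16, 11254417 to 11256204), fell from 4.13, 8.62 and 4.09 TPM to 0.620, 1.07 and 0.845 TPM (-1.78 ± 0.22, adjusted p = 8.09e-06). In all of these the 3 libraries of 8 d lay close together, library 1 included. None of the 3 calls was lost in the fit of the 6 libraries (adjusted p = 0.00486 for SLA, 0.0051 for PTPN6 and 0.0153 for SOCS1) or without library 1.

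Of the 9 T cell markers 6 were lower and none higher (median -0.26), also without library 1, and 3 were lower in the fit of the 6 libraries, among them CD3D, from 618 to 655 TPM to 455 to 490 TPM (-0.41 ± 0.05, adjusted p = 3.08e-06). A wider list of 27 tested T cell surface molecules moved both ways, with 6 higher and 7 lower (median -0.02). Its counts were 2 and 7 without library 1 and 2 and 3 in the fit of the 6 libraries. Immediate early genes, which follow receptor or growth factor signals, were lower in 10 of 24 and higher in 3 (median -0.12), 8 and 2 without library 1 and 4 and 2 in the fit of the 6 libraries, with the phosphatase DUSP2 at 30.6 to 34.5 TPM and then 16.6 to 20.0 TPM (-0.74, adjusted p = 1.84e-05). HBEGF, a growth factor precursor, fell from 108, 120 and 130 TPM to 62.2, 45.5 and 43.4 TPM (-1.24 ± 0.13, adjusted p = 2.17e-06).

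TCF7, the T-lineage factor TCF-1 (chromosome 5, 134108218 to 134148210), was lower in every 8 d library, at 27.1, 27.2 and 23.2 TPM at 6 h and 12.4, 12.0 and 10.8 TPM at 8 d (-1.08 ± 0.08, adjusted p = 4.64e-08). NOTCH1 went from 23.1, 26.3 and 25.5 TPM to 16.0, 16.1 and 16.0 TPM (-0.60, adjusted p = 3.61e-05). ETS1 rose from 128 to 136 TPM to 184 to 215 TPM (0.58, adjusted p = 5.82e-05) and BCL11B by 0.21 (adjusted p = 0.00745, but 0.115 in the fit of the 6 libraries and 0.057 without library 1). TAL1 (-0.16), GATA3 (0.14), RUNX1 (0.13), MYB (0.21), NOTCH3 (-0.43) and BCL2 (0.10) were not called, with adjusted p between 0.0601 and 0.594. Of 31 listed leukaemia factors 7 were higher and 5 lower, near the share over all genes (5 and 6 without library 1, 2 and 2 in the fit of the 6). The chemokine receptor CXCR4 was at 236 to 258 TPM and then at 302, 234 and 224 TPM (0.02, adjusted p = 0.903). Of the genes the study targeted, ARID1A (-0.08), ARID1B (0.06), SMARCA4 (-0.12) and SMARCA2 (0.14) were not called, and 3 of 23 listed cBAF subunit genes were higher and 5 lower, near the 16.6% and 18.7% of all genes (1 and 6 without library 1, 0 and 3 in the fit of the 6).

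**Figure D4:**
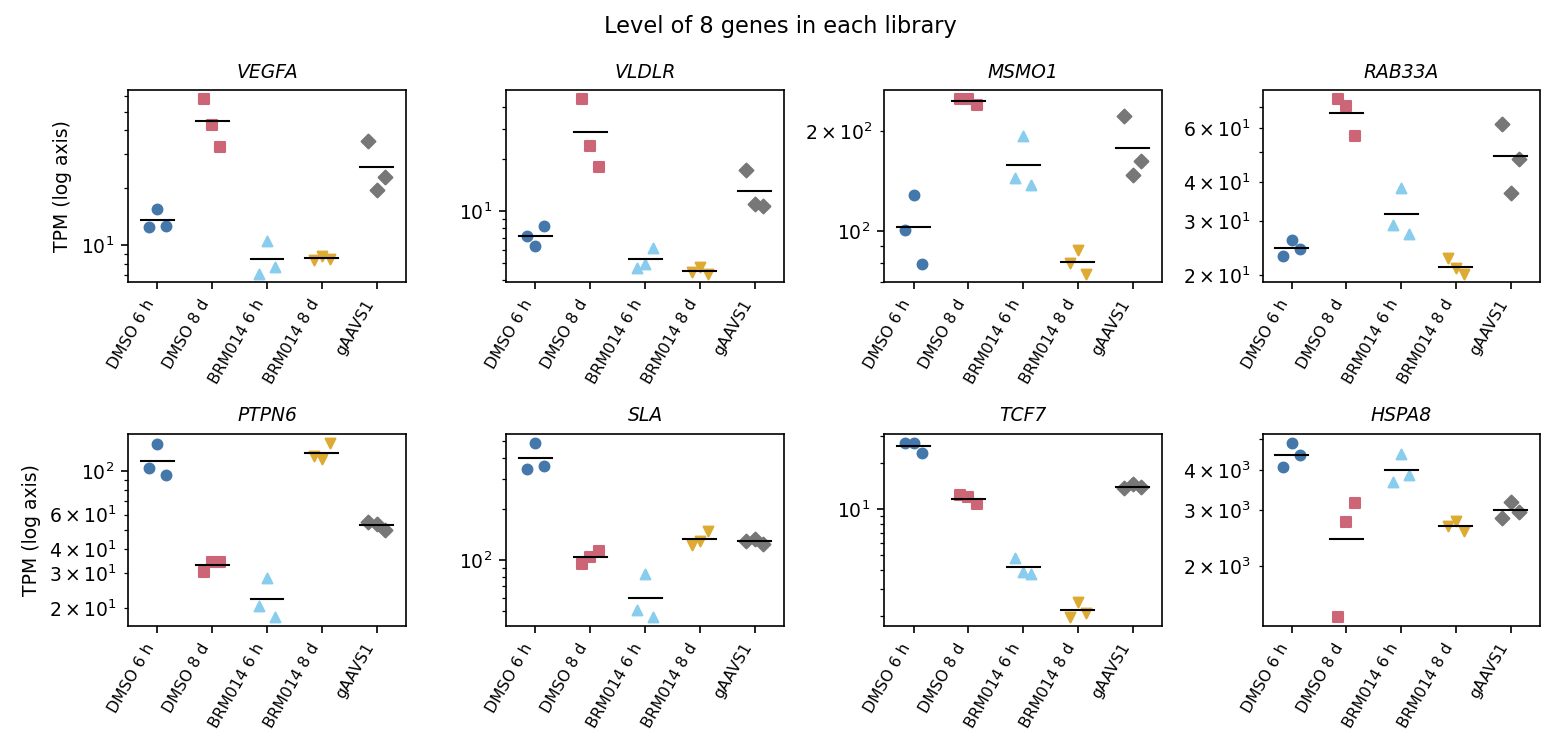
TPM of 8 genes in each of 15 libraries on a log axis (a separate scale per gene), by group, 1 point per library and a line at the group mean. PTPN6 lies at 95.7 to 138 TPM in DMSO 6 h and at 30.6 to 34.5 TPM in DMSO 8 d, and HSPA8 is lowest in library 1 of DMSO 8 d at 1377 TPM.

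VEGFA, the vascular growth factor (chromosome 6, 43770211 to 43786487), was at 12.4, 15.5 and 12.6 TPM at 6 h and at 58.0, 42.6 and 32.6 TPM at 8 d (1.62 ± 0.24, adjusted p = 4.84e-05). It is a known target of both hypoxia factors and ATF4. Of 28 tested genes of the hypoxia and glycolysis list that holds it, 5 were higher and 6 lower, near the 16.6% and 18.7% of all genes. The list median was 0.0023, and the counts were 4 and 3 without library 1 and 4 and 1 in the fit of the 6. The glucose transporter SLC2A1 fell from 51.8 to 55.4 TPM to 38.2 to 40.9 TPM (-0.44, adjusted p = 3.55e-06). The small GTPase gene RAB33A (chromosome X) rose from 23.1, 26.1 and 24.3 TPM to 74.4, 71.0 and 56.5 TPM (1.41 ± 0.18, adjusted p = 9.88e-06). OSGIN1, an oxidative stress gene, fell from 11.4 to 13.9 TPM to 4.00 to 5.27 TPM (-1.23), and of the 19 tested genes of the oxidative stress list, which also holds SLC7A11, 7 including OSGIN1 were lower and 1 was higher (5 and 1 without library 1, 3 and 1 in the fit of the 6). Interferon response genes were 5 higher and 5 lower of 31, near the share over all genes (4 and 6 without library 1, 1 and 2 in the fit of the 6).

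The most abundant mRNAs were mitochondrial. The 13 mitochondrially encoded mRNAs took 20.0 to 22.0% of TPM at 6 h and 23.1 to 23.9% at 8 d (mean 21.0 ± 0.98% and 23.5 ± 0.40%, SD, n = 3, exact permutation p = 0.1, two-sided). Of these 8 were higher and none lower (7 without library 1, 2 in the fit of the 6), and ND4L rose from 18200, 17410 and 15780 TPM to 21640, 20500 and 21490 TPM (0.31 ± 0.05, adjusted p = 5.55e-05), though its reads overlap those of ND4. Since TPM are shares of a fixed total, all other mRNAs are lowered by the same factor. With these genes left out and the rest rescaled, 3941 genes were higher and 2619 lower, in place of 2985 and 3353.

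Differences also followed the base composition and length of genes. In 5 equal bins of the GC content of the longest GENCODE transcript (15199 genes, 84.7% of those tested), the median difference was 0.07 in the lowest bin (832 higher, 229 lower), 0.03, -0.0079 and -0.06 in the next 3 and -0.10 in the highest (241 higher, 908 lower). Without library 1 the 2 end bins were at 0.06 and -0.13. By gene length the median went from -0.04 in the shortest of 5 equal bins (up to 1236 bases) to 0.06 in the longest (6750 bases or more). These became -0.06 and 0.02 without library 1. Chromosome medians ran from -0.08 on chromosomes 19 and 16 to 0.07 on chromosomes 13 and 4. These shifts are smaller than the list medians given above for the ATF4 list, cholesterol synthesis and heat shock chaperones, and of about the size of those for mitosis and ribosomal proteins. The part of base composition and length in the small differences was not tested.

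The BRM014 libraries give a second pair of the same times. Between them 10715 genes (59.7%) were called. Of the 2985 genes higher in DMSO at 8 d, 1602 (53.7%) were also higher in BRM014 at 8 d and 447 (15.0%) were lower; of the 3353 lower in DMSO, 1736 (51.8%) were also lower and 585 (17.4%) higher. For comparison, 32.3% of all tested genes were higher and 27.5% lower between the BRM014 times. Across all tested genes Pearson's r between the 2 time differences was 0.23 and Spearman's rho 0.30, a description over genes, which are not independent.

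**Figure D5:**
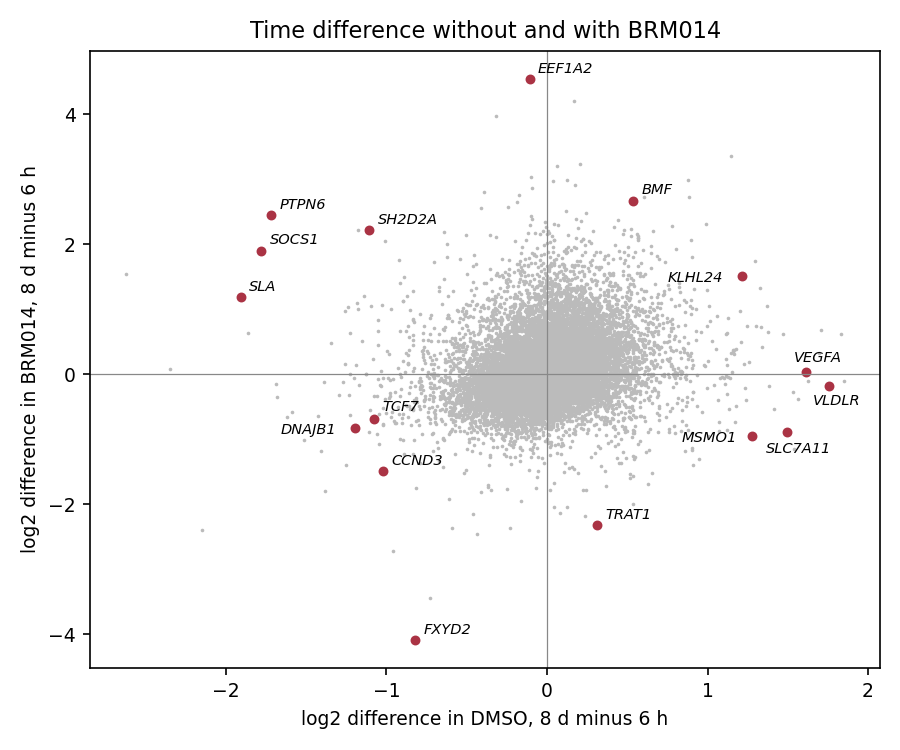
Log2 difference of 8 d minus 6 h in DMSO (horizontal axis) and in BRM014 (vertical axis), 1 point per tested gene, with named genes in red. PTPN6 (-1.72 and 2.45), SOCS1 and SH2D2A lie in the upper left, and VEGFA and VLDLR lie near 0 on the vertical axis at 1.62 and 1.76 on the horizontal one.

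The time effect differed between the arms for 7929 genes (44.2%). Some named genes moved the same way in both. KLHL24 rose by 1.22 in DMSO and 1.52 in BRM014 and CCNG2 by 1.37 and 1.04, with the difference between arms not called (adjusted p = 0.451 and 0.378). DNAJB1 fell by 1.19 and 0.82 (adjusted p of the difference = 0.169) and RRP12 by 0.66 and 0.70 (adjusted p = 0.88). A p above the threshold does not show equal size.

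Several ATF4 and sterol genes behaved otherwise, but the stress genes ATF3 and SESN2 did not. ATF3 rose by 1.30 in DMSO and 0.74 in BRM014, and SESN2 by 1.25 and 0.74. Their difference between arms was not called (adjusted p = 0.178 and 0.186). VEGFA was at 7.10, 10.6 and 7.71 TPM in BRM014 at 6 h and at 8.34, 8.81 and 8.49 TPM at 8 d, where no difference was called (0.03, adjusted p = 0.924), and the difference between the time effects was -1.59 ± 0.34 (adjusted p = 0.000727). For VLDLR the difference was -1.94 (adjusted p = 0.000237), for SLC7A11 -2.38 (adjusted p = 2.6e-05), for CHAC1 -1.95 (adjusted p = 0.00225), for PSAT1 -1.25 (adjusted p = 0.000396) and for MSMO1 -2.23 (adjusted p = 9.21e-07). MSMO1 fell between the BRM014 times, from 145, 193 and 137 TPM to 80.1, 87.9 and 74.3 TPM. The ATF4 list median was -0.24 to -0.23 in the BRM014 8 d libraries, relative to DMSO 6 h, against 0.35 to 1.16 in DMSO 8 d. That of the cholesterol list was -0.59 to -0.54 against 0.35 to 0.63. In gAAVS1, collected after 10 days, the ATF4 list was at 0.34, 0.04 and 0.09 and VEGFA at 35.0, 19.4 and 22.6 TPM. For most of the 15 largest decreases the gAAVS1 mean lay nearer to DMSO 8 d than to DMSO 6 h. SLA was at 129 TPM there (means of 397 at 6 h and 104 at 8 d) and SOCS1 at 1.36 (5.61 and 0.85). IL7R was at 4.28 TPM (12.8 and 4.44) and TCF7 at 14.1 (25.9 and 11.7). OSGIN1 was the exception, at 17.8 TPM (12.3 and 4.69).

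For some genes the choice of the 6 h or the 8 d control changes the reading of the 8 d treatment. The 2 readings share the BRM014 8 d libraries and are set side by side as values. PTPN6 in BRM014 8 d was 1.88 above DMSO 8 d (adjusted p = 4.74e-10) and 0.16 above DMSO 6 h (adjusted p = 0.348). SLA was 0.36 above DMSO 8 d (adjusted p = 0.0877) and 1.55 below DMSO 6 h, a log2 difference of -1.55 (adjusted p = 2.02e-07). IL7R changed sign, with 0.55 against DMSO 8 d (adjusted p = 4.73e-05) and -0.79 against DMSO 6 h (adjusted p = 3.39e-07). VLDLR was at -2.33 against DMSO 8 d (adjusted p = 1.9e-07) and -0.57 against DMSO 6 h (adjusted p = 0.0641), MSMO1 at -1.60 (adjusted p = 3.05e-07) and -0.32 (adjusted p = 0.143), and RAB33A at -1.60 (adjusted p = 1.43e-07) and -0.19 (adjusted p = 0.356). For KLHL24 it was the reverse, with 0.47 against DMSO 8 d (adjusted p = 0.0645) and 1.69 against DMSO 6 h (adjusted p = 8.08e-07). TCF7 was lower against either control, at -2.00 and -3.07 (adjusted p = 7.41e-15 and 5.74e-18). Over all tested genes 10739 (59.9%) were called against DMSO 8 d and 11117 (62.0%) against DMSO 6 h, at 2-fold or more 722 (4.03%) and 839 (4.68%) higher and 383 (2.14%) and 323 (1.8%) lower.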

How the data were processed

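RNA of Jurkat cells was extracted on a Maxwell instrument and made into libraries with a non-directional NEBNext Ultra II kit, per the labels' protocols, so reads of overlapping genes on opposite strands cannot be told apart. HISAT2 2.2.1, featureCounts 2.0.3, DESeq2 1.38.2 and hg38 are named in the submitters' processing notes, without their roles. The authors deposited TPM for 38557 genes in 27 Jurkat libraries, each with a total of 1e+06, together with gene lengths. The authors' deposited TPM multiplied by length gave whole reads within 0.01 for 100% of values above 0, and these give the depth.

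A gene was tested if 3 or more Jurkat libraries held it at 1 TPM or above, which left 17936. Log2(TPM + 1) was fitted with limma 3.58.1 in R 4.3.3 over all 9 Jurkat groups (18 residual degrees of freedom, eBayes with trend and robust), with Benjamini-Hochberg adjustment over all tested genes. The script was tested on simulated data. Summaries and figures were made in Python 3.11.15. Gene positions were joined by symbol (35645 genes) from RefSeq on GRCh38.p14, and promoter sequences are RefSeq's on that build.

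The libraries, 41 gene lists and rule for named genes were chosen with earlier results of these data known. Named genes were the 15 largest increases and decreases among protein-coding genes called without overlap at 5 TPM or more, up to 3 called members per list, fixed regulators of T-cell leukaemia and cBAF genes, the 8 genes with the largest difference between arms and the 6 most abundant called genes. Exceptions are marked in the text, and other list members cited as examples were chosen after their values were seen. Alternatives were a pseudocount of 0.1, no filter, a filter of 5 TPM, median-ratio rescaling, mitochondrial genes left out, eBayes without trend, only the groups compared, a replicate block, limma-voom on recovered reads and each library left out. List counts under other fits, DMSO 6 h as control for BRM014 8 d and the GC bins were added after seeing the data. Values for some genes meeting this rule are left out of the text.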

Additional observations from a re-analysis of the deposited data

Results flagged for a closer look

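The time effect differed between the BRM014 and the DMSO arm by a test of that difference in limma for 8 genes chosen for the size of that difference, among 7929 called (44.2% of those tested). Values are the log2 time effect in BRM014 minus that in DMSO, with adjusted p. The largest positive values were 4.17 for PTPN6 (4.18e-12), 3.68 for SOCS1 (9.07e-09) and 3.33 for SH2D2A, an adaptor of T cell signalling (8.18e-10). SH2D2A was at 27.7, 31.9 and 22.8 TPM in DMSO 6 h, 11.4, 11.8 and 13.1 TPM in DMSO 8 d, and at means of 13.5 and 65.4 TPM in BRM014 at 6 h and 8 d. MIR7848 had 4.16 (1.12e-06); its row lies inside SLA, whose own time effects were -1.91 and 1.19, and with a non-directional kit its reads cannot be told from those of SLA.

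The largest negative values were -3.27 for FXYD2, a regulator of the sodium pump (1.35e-07), and -2.71 for the overlapping readthrough row FXYD6-FXYD2 (1.48e-07), which share exons. FXYD2 was at 69.4, 42.5 and 58.8 TPM in DMSO 6 h and 25.0, 37.5 and 32.2 TPM in DMSO 8 d, and at a mean of 1.36 TPM in BRM014 8 d. Its fall in DMSO (-0.82, adjusted p = 0.0101) was lost without DMSO 8 d library 1 (adjusted p = 0.062). SNORD159 had -2.69 (1.08e-06), and its row lies inside the cholesterol gene LSS. TRAT1, a T cell receptor associated membrane protein, had -2.63 (1.78e-12), from 17.8 to 23.5 TPM in DMSO 6 h to 24.4 to 25.3 TPM in DMSO 8 d, and from means of 6.53 to 0.508 TPM in BRM014.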

How the results depend on the processing

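With only the 2 groups compared 859 genes were higher and 1197 lower, in place of 2985 and 3353. With the replicate number as a block in that fit they were 345 and 483, and 29 higher at 2-fold. The numbers did not pair the libraries (correlations of departures -0.097, -0.087 and 0.034). Between DMSO 6 h and BRM014 6 h they were 0.172, 0.296 and 0.091, each library's highest being with its own number, and the last lies under the 0.1 required of every pair. With only the groups of that comparison 6515 genes differed between arms, in place of 7929, and with the block added to that fit 6184. Counts at 2-fold, 55 higher and 47 lower, moved to 141 and 116 with a pseudocount of 0.1 and to 170 and 107 with limma-voom. With 1 library left out at a time genes higher ranged from 1916 (without DMSO 8 d library 1) to 3256, genes lower from 2707 to 3360, genes higher at 2-fold from 27 (without DMSO 8 d library 1) to 92 (without DMSO 8 d library 3) and lower from 39 to 56. Other counts stayed within 1.5 times, and for the BRM014 times and the difference between arms under every alternative run. Of 146 named genes called, 87 kept the call with only the 2 groups compared, 58 with the block, 128 without DMSO 8 d library 1 and 129 to 145 under the other alternatives except the filter of 5 TPM and the removal of mitochondrial genes, which left some untested (136 kept in each). None of the named genes reversed. Depth (33.43 to 37.16 M reads) limits only genes near 1 TPM. Which of the 2 culture times, vehicle or experiment underlies a difference cannot be told apart with 1 group of 3 at each time.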
